A study of Homo sapiens with 12 samples.

Results

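MDA-MB-231, an established human triple-negative breast cancer (TNBC) cell line, was compared here between TRMT112 knockdown (KD) and empty vector (EV) cells by sequencing the RNA bound to polysomes. These are 4 of the 12 libraries of the study, 2 for each of 6 groups in 3 TNBC lines, and the other 8 come from the lines SUM159, with the same knockdown, and BT549, with TRMT112 overexpressed. The labels call the control EV CTRL, whereas the methods name a non-silencing shRNA in the same lentiviral plasmid, which was delivered by lipid transfection and selected with puromycin just as the single TRMT112 shRNA product was. Both groups therefore grew in the same medium, passed the same drug selection and were treated with cycloheximide, which holds ribosomes on mRNA, before lysis and separation on a sucrose gradient. Whether each population was a pool or a clone, and whether the 2 libraries of a group came from separate cultures, is not given in the sources used here, so p-values measure only the spread between these samples, which may be technical.

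The genes described are those with a mean of at least 50 counts in the 4 MDA-MB-231 libraries, which were 12084 of the 24559 gene symbols in the deposited table, and all 12084 passed the filter on low counts. No total RNA was analysed, so more of an mRNA and more ribosomes on it cannot be told apart, and since libraries were scaled to each other a change shared by all mRNAs would not appear. TRMT112, the targeted gene, encodes a small protein that holds several methyltransferases in their folded, active form. Its partners modify the RNA of the small ribosomal subunit (BUD23 and METTL5), transfer RNA (TRMT11, THUMPD3 and ALKBH8), a spliceosomal RNA (THUMPD2) and the translation termination factor (N6AMT1). Polysomes are mRNAs that carry several ribosomes at once, and the RNA taken from them is a readout of which messages are being translated.

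The library totals were 23020077 and 23630478 expected counts in EV and 24581861 and 23822345 in KD. The median gene differed by 0.066 on the log2 scale between the EV replicates and by 0.063 between the KD replicates, and both pairs differed by more than sampling noise, so that none was a copy of another. The line's known features were present: VIM, an intermediate filament of mesenchymal cells, had 32681 and 31693 in EV and 32782 and 32164 in KD (normalised read counts, here and throughout scaled to the mean library of this line), while CDKN2A, a cell cycle inhibitor, and PGR, the progesterone receptor, had 0 counts in all 4 libraries, which allows up to 3 counts per library. All 6 genes listed as expressed by the line were measured, of which 4 were higher in KD and 0 lower, and of the 8 listed as low or absent only 3 reached a mean of 50 counts, with GATA3 higher. Of 10 markers of immune, endothelial and fibroblast cells 3 were not analysed here, the leukocyte gene PTPRC and the fibroblast genes LUM and DCN had at most 3 counts in any library, and PECAM1 had 12 and 11.7 in EV and 13 and 16.4 in KD. The other 3 (CD68, CDH5 and PDGFRB) passed the minimum and were higher in KD. All 7 markers summed to 4936.3 and 4830.5 normalised counts in EV and 5700.6 and 5807.1 in KD, most of it from CD68. Without CD68 the markers summed to 268.7 and 271.6 normalised counts in EV and 717.9 and 748.6 in KD.

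Knockdown moved many mRNAs by small amounts and a few by large ones. Of all 16538 genes tested, 6240 (37.7%) differed between KD and EV and the groups did not overlap in 66.0%. Of the 12084 genes with a mean of 50 counts or more, 5897 (48.8%) differed between KD and EV at an adjusted p-value under 0.05 from edgeR's quasi-likelihood test, 3362 of them higher (27.8%) and 2535 lower (21.0%). The log2 fold change, which is positive where KD was higher, lay between -0.55 and 0.55 for the middle 90% of genes and had a median of 0.01. Its median standard error was 0.072. Of the called genes, 1987 changed by less than 0.25 on this log2 scale, 2567 by 0.25 to 0.5 and 1117 by 0.5 to 1. A change of at least 1, that is at least 2-fold, was seen in 226 genes (1.87%), with 138 higher and 88 lower. Of these, 25 higher and 9 lower changed by 2 or more. For comparison, the EV and KD values did not overlap in 9211 genes (76.2%), called or not. The balance of higher and lower calls depended on the scaling, since 57.0% of the called genes were higher with TMM normalization and 36.9% when libraries were scaled by their totals alone, which moved the median gene by -0.09 and turned the sign of 10 of the 46 list medians described here.

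**Figure D1:**
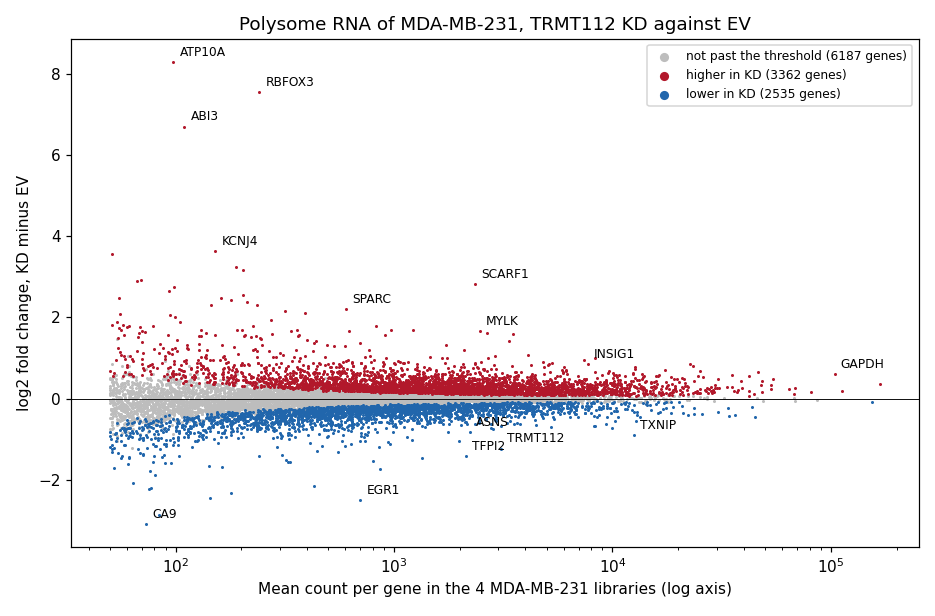
Log2 fold change (KD minus EV) of the 12084 genes against their mean count in the 4 MDA-MB-231 libraries (log axis), 1 point per gene, coloured by the edgeR call at an adjusted p-value under 0.05. Most called genes lie close to 0, while ATP10A, RBFOX3 and ABI3 stand above 6 on the log2 scale and CA9 lies lowest.

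TRMT112 itself, the check of the labels, had 4419.9 and 4197 in EV and 1880.2 and 1793 in KD (normalised counts). It fell by 1.23 on the log2 scale, with a standard error of 0.04 and an adjusted p of 5.1e-16 from edgeR's quasi-likelihood test. Both KD libraries were below both EV libraries, and KD cells kept 0.426 of the EV level. The 7 partners moved far less and in both directions, and over the whole list of 8 genes 2 were higher and 4 lower. BUD23, which methylates a guanosine of the small-subunit rRNA, had 4972 and 5186 in EV and 6911 and 6908 in KD and rose (log2 fold change 0.44, adjusted p = 1.67e-10). TRMT11, a tRNA guanosine methyltransferase, had 900.4 and 980.1 in EV and 781 and 742 in KD and fell (log2 fold change -0.30, adjusted p = 0.00145). Another 3 partners passed the threshold with smaller changes, namely THUMPD3 (0.17, higher), METTL5 (-0.17, lower) and ALKBH8 (-0.18, lower), whereas THUMPD2 (-0.17, adjusted p = 0.352) and N6AMT1 (0.08, adjusted p = 0.609) did not. Leaving out 1 library, which leaves a group with 1 sample, ended the call of ALKBH8 in all 4 cases, of THUMPD3 in 3 (all but KD 1) and of METTL5 in 2 (EV 1 and KD 1), while the log2 fold changes stayed between -0.21 and -0.15, 0.13 and 0.21, and -0.23 and -0.10. ALKBH8 was not called by DESeq2, THUMPD3 was not called with scaling by totals, and METTL5 turned to 0.07 when the median of its 10 Mb window was subtracted.

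The 15 genes with the largest rise among called, non-overlapping genes began with 3 that were close to absent in EV cells. ATP10A, a phospholipid flippase of the plasma membrane (chr15:25677273-25865184, GRCh38), had 1 and 0 raw counts in the EV libraries and 192 and 198 in the KD libraries, a ratio of 399.8 after scaling (95% exact counting interval 71.3 to 15829.8). RBFOX3, the splicing regulator known as the neuronal marker NeuN (chr17:79089345-79611051), had 4.01 and 0.973 in EV and 490.3 and 485 in KD (normalised counts), a ratio of 197.4 (84.3 to 609.4). ABI3, an adaptor of the complexes that drive actin branching (chr17:49210411-49223225), had 1 and 2.92 in EV and 224 and 217 in KD, a ratio of 111.5 (43.2 to 411.0). In all 3 genes both KD libraries were at least 50 times higher than either EV library, and the intervals cover counting error only.

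Next came KCNJ4, an inwardly rectifying potassium channel, with 23.1 and 22.4 in EV and 291 and 278 in KD (log2 fold change 3.64). COCH, a secreted matrix protein known from the inner ear, had 9.02 and 6.81 in EV and 96.9 and 93.5 in KD (3.57). SAA1, an acute-phase protein, had 37.1 and 36 in EV and 359.5 and 333 in KD (3.24). In each of the 3 both KD libraries were close together and about 10 times above the EV libraries. SCARF1, a scavenger receptor that takes up modified lipoproteins (chr17:1633858-1645744), differed in abundance from the others, with 542 and 626 in EV and 4221 and 4094 in KD (log2 fold change 2.83, standard error 0.07, adjusted p = 5.95e-17), and was the largest rise among abundant mRNAs. The remaining members were AFAP1L2, GGT5, SPANXA1, OSCAR, LMTK3, EFEMP2, CFP and CDH5, with log2 fold changes from 2.48 to 3.17. Among these, EFEMP2 makes fibulin-4 of elastic fibres, CFP the complement protein properdin, OSCAR a collagen receptor of osteoclasts and CDH5 the cadherin of endothelial junctions (18.1 and 15.6 in EV and 105 and 83.2 in KD). SPANXA1 belongs to a family of near-identical copies on the X chromosome, and with 28.1 and 4.87 in EV and 125 and 123 in KD its EV libraries differed, so its value is uncertain.

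**Figure D2:**
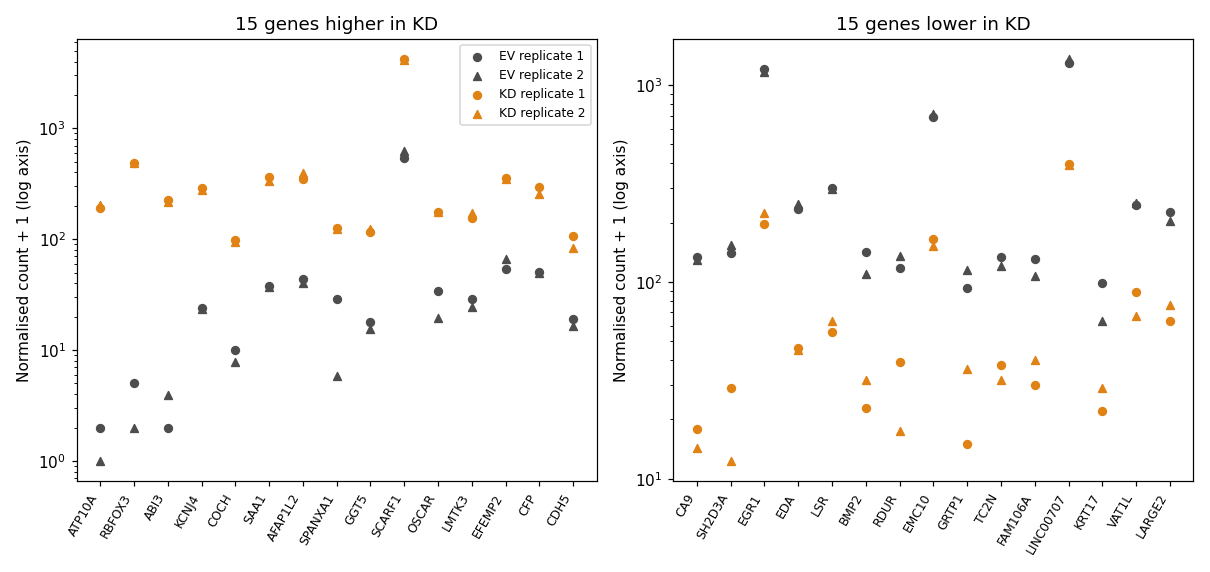
Normalised count plus 1 (log axis) of the 15 genes with the largest rise and the 15 with the largest fall in KD, 1 circle (replicate 1) and 1 triangle (replicate 2) per group, EV in grey and KD in orange. Genes were chosen to have groups that do not overlap, and ATP10A, RBFOX3 and ABI3 sit within 5 counts of 0 in EV.

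CA9, a carbonic anhydrase of the cell surface that is a standard marker of hypoxia (chr9:35673928-35681159), had the largest fall, with 132 and 128 in EV and 17 and 13.3 in KD (log2 fold change -3.08, standard error 0.20, adjusted p = 2.13e-11). EGR1, an immediate early transcription factor of growth factor signalling (chr5:138465479-138469303), was the most abundant coding gene of the 15, with 1202 and 1163 in EV and 197 and 224 in KD (-2.49, standard error 0.09, adjusted p = 1.5e-15). Both mRNAs were lower by more than 5-fold in every KD library. EMC10, a subunit of the complex that inserts proteins into the ER membrane, had 689 and 709 in EV and 165 and 151 in KD (-2.15). LSR, a lipoprotein receptor that also sits at cell junctions, had 298 and 297 in EV and 54.9 and 62.6 in KD (-2.34). BMP2, a secreted bone morphogenetic protein, had 140.4 and 109 in EV and 22 and 30.8 in KD (-2.24). All KD values of these 3 were below all EV values, as the choice of the genes required. Falls between 1.65 and 2.88 were also seen for SH2D3A, EDA (ectodysplasin, a ligand of the TNF family), GRTP1, TC2N, KRT17 (a basal keratin), VAT1L, LARGE2 (a glycosyltransferase of dystroglycan) and the long noncoding RNAs RDUR, FAM106A and LINC00707. RDUR, TC2N and, among the rises, CFP were not called by DESeq2 (adjusted p = 0.39, 0.41 and 0.26).

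Where the mean was 2000 counts or more, the 5 largest rises were in SCARF1, MYLK, DYSF, HEG1 and the long noncoding RNA ENSG00000227706. MYLK, the kinase that activates myosin for contraction, had 1205 and 1187 in EV and 3801 and 3765 in KD (1.66, standard error 0.05, adjusted p = 8.07e-17). DYSF, dysferlin of membrane repair, had 1353 and 1298 in EV and 4076 and 4041 in KD (1.61), and HEG1, a transmembrane mucin-like receptor, had 1912 and 1762 in EV and 4814 and 5083 in KD (1.43). Replicates of each differed by far less than the roughly 3-fold gap between groups. The 5 largest falls were in TFPI2, TRMT112, TXNIP, ASNS and RAP1GAP2. TFPI2, a secreted inhibitor of serine proteases of the matrix, had 3034 and 3119.5 in EV and 1117 and 1191 in KD (-1.42), and TXNIP, an arrestin that restrains glucose uptake, had 15916 and 16658 in EV and 8851 and 8745 in KD (-0.89). ARRDC4, the close relative of TXNIP that responds to the same glucose sensor, fell further, with 1874 and 2026 in EV and 747 and 675 in KD (-1.46, adjusted p = 6.88e-13).

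Most mRNAs of sterol synthesis rose. Cells make cholesterol from acetyl-CoA along the mevalonate pathway, and the transcription factor SREBP2, encoded by SREBF2, switches the whole pathway on when membrane sterol falls. Of 24 members, 18 rose (against 27.8% of all genes) and 2 fell, with a median log2 fold change of 0.46 against 0.01 over all genes. The 4 pairs of a KD and an EV library gave medians of 0.455 to 0.464. MVD, the decarboxylase that makes isopentenyl diphosphate, had 3696 and 3614 in EV and 6783 and 6528 in KD (0.86, adjusted p = 8.15e-14). INSIG1, which retains the SREBP machinery in the ER, had 5542 and 5484 in EV and 10026 and 9934 in KD (0.86, adjusted p = 5.1e-16). HMGCS1, the synthase at the start of the pathway, had 1084 and 1069 in EV and 1664 and 1865 in KD (0.71). Both KD libraries were above both EV libraries, by 1.5-fold or more, in each of them. The acetyl-CoA acetyltransferase ACAT2 (0.69) and the isomerase IDI1 (0.64) rose as much, and MVK, LSS and MSMO1 rose by 0.49 to 0.61. SQLE, the epoxidase of squalene, did not pass the threshold (668 and 710.5 in EV and 691 and 749 in KD, 0.06, adjusted p = 0.481). The sterol reductase TM7SF2 was among the 2 that fell (-0.57).

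The fatty acid synthesis list had 9 of 16 members higher (56.2%, against 27.8% of all genes), 2 lower (12.5%, against 21.0%) and a median of 0.20. ELOVL6, an elongase of long-chain fatty acids, had 2467 and 2506 in EV and 3459.9 and 3639 in KD (0.51), and the acetyl-CoA synthetase ACSS2 had 1802 and 1742 in EV and 2399.5 and 2431 in KD (0.45). The 2 members that fell were the acyl-CoA ligases ACSL4 (-0.38) and ACSL3 (-0.18). The letters TCACNCCAC of a sterol response element, searched on both strands, were found in the promoter (250 bases before to 50 after the gene start, RefSeq, GRCh38.p14) of only 1 of the 18 sterol genes with a listed promoter (5.56%, against 1.15% of 27305 promoters), which was SREBF2 itself (12162 and 11988 in EV and 16341 and 16479 in KD, log2 fold change 0.44). That stretch is shown with the match in capitals, since it belongs to the regulator of the pathway:
SREBF2, chr22:41832926-41833025, plus strand: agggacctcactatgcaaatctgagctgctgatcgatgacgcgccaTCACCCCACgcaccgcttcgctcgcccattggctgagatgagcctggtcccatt

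**Figure D3:**
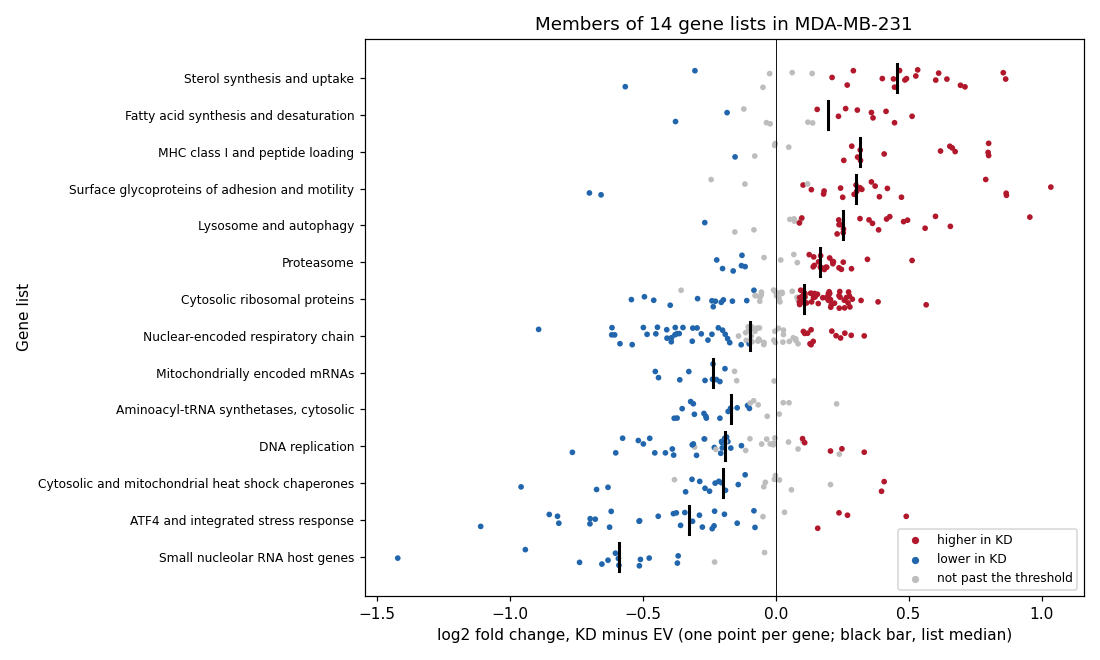
Log2 fold change (KD minus EV) of each member of 14 gene lists, 1 point per gene with a mean of at least 50 counts, red if higher and blue if lower at an adjusted p-value under 0.05, and grey otherwise; the black bar is the list's median. Sterol synthesis lies furthest to the right, with a median of 0.46, and the small nucleolar RNA host genes furthest to the left, with a median of -0.59.

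Most targets of ATF4 fell. ATF4 is the transcription factor of the integrated stress response, in which stress on amino acids or the ER slows initiation of translation and turns on genes that import and make amino acids. Of 32 members, 26 fell (81.2%, against 21.0% of all genes), 4 rose and the median was -0.33 (at most -0.30 in each pair of a KD and an EV library). DDIT3, the stress factor CHOP, had 895 and 841 in EV and 380.4 and 424 in KD (-1.11, adjusted p = 9.14e-11). ASNS, which makes asparagine, had 2701 and 2972 in EV and 1607 and 1616 in KD (-0.82). CTH, the enzyme that releases cysteine from cystathionine, had 385 and 388 in EV and 202 and 227 in KD (-0.85). The KD values of all 3 lay below the EV values, as their choice by size of change made likely (groups did not overlap in 76.2% of all genes). The secreted stress factor GDF15 (-0.82), PPP1R15A, which restarts initiation after stress (-0.70), and the ATF-family member ATF5 (-0.70) also fell. ATF4 itself did not pass the threshold (17564 and 17665 in EV and 16912 and 17153 in KD, -0.05, adjusted p = 0.192). The 4 exceptions that rose were the amino acid transporters SLC7A5 (0.49) and SLC1A4 (0.27), CEBPB (0.24) and PYCR1 (0.16).

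The cytosolic aminoacyl-tRNA synthetases charge tRNAs with amino acids and are partly under ATF4. Of 23 members, 15 were lower (65.2%, against 21.0% of all genes) and 0 higher, with a median of -0.17. The largest falls were in TARS1 (7614 and 7678 in EV and 5921 and 5810.2 in KD, -0.38), FARSB (-0.37) and IARS1 (8538 and 8284 in EV and 6600.3 and 6581 in KD, -0.35). In all 3 the KD values lay below the EV values, which the choice of the largest called changes made likely. The ATF4-type letters TGATGNAA, on either strand, were found in 5 of 27 promoters of the stress response list (18.5%) and in 6 of 18 of the synthetases (33.3%), against 3.67% of 27305 promoters. Stretches of 100 bases upstream of the start of ASNS and IARS1 (GRCh38.p14, written along the gene's strand) are shown because each is its list's gene with the largest change among those whose match lies before the start, and capitals mark the match, which in IARS1 reads on the opposite strand:
ASNS, chr7:97872423-97872522, minus strand: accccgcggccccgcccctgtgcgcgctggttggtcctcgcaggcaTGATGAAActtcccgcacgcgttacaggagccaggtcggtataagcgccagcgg
IARS1, chr9:92293698-92293797, minus strand: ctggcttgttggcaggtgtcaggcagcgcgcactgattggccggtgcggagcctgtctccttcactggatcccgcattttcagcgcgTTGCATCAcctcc

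Chaperones fell in part. Of 24 cytosolic and mitochondrial heat shock chaperones, 14 fell (58.3%, against 21.0% of all genes) and 2 rose, with a median of -0.20 that went to -0.05 when the median of each gene's 10 Mb window was subtracted. The mitochondrial chaperones HSPD1 (10142 and 10024 in EV and 6276 and 6366 in KD, -0.67) and HSPA9 (4599 and 4531 in EV and 2956 and 2938 in KD, -0.63) fell without overlap, as did HSPA1A (-0.96), whose reads are shared with a near-identical copy. HSPB1 (0.41) and BAG3 (0.40) were the 2 that rose. Among 31 genes of the ER and the unfolded protein response, 7 rose (22.6%) and 8 fell (25.8%), close to the 27.8% and 21.0% of all genes, and with scaling by totals 5 were higher and 19 lower. The main ER chaperones HSPA5 (3520.5 and 3699 in EV and 2648 and 2738 in KD, -0.42) and HSP90B1 (-0.36) fell, while EDEM1 (0.43) and CREB3L2 (0.32) rose.

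The ribosome's own mRNAs went in different directions. Cytosolic ribosomal proteins had 47 of 79 members higher (59.5%, against 27.8% of all genes) and 13 lower (16.5%, against 21.0%). Their median of 0.10 dropped to 0.01 when libraries were scaled by their totals. RPL13 had 19881 and 20021 in EV and 30211 and 28847 in KD (0.57, adjusted p = 2.56e-12), whereas RPS29 (1138 and 1188 in EV and 832 and 765 in KD, -0.54), RPL39 (-0.49), RPL41 (-0.46) and RPS28 (-0.40) fell. Ribosomal protein genes have many processed pseudogenes, so their expected counts depend on how shared reads were divided. Factors that build ribosomes had 36 of 92 members lower (39.1%, against 21.0% of all genes), 15 higher (16.3%, against 27.8%) and a median of -0.06. DDX10, a nucleolar helicase, had 892 and 939 in EV and 470.3 and 499 in KD (-0.92), MDN1, the giant ATPase that remodels the large subunit, had 708 and 638 in EV and 455 and 414 in KD (-0.63), and the RNA polymerase I subunit POLR1E had 1684 and 1666 in EV and 1164 and 1128 in KD (-0.55). All 3 fell without overlap between groups, which their choice by size of change made likely and which held for 76.2% of all genes. DDX47 rose (3567 and 3551 in EV and 5393 and 5284 in KD, 0.58).

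The largest shift of any list of 10 or more genes was in the hosts of small nucleolar RNAs, genes whose introns release the guide RNAs that direct rRNA modification and whose spliced transcripts are mostly noncoding. Of 15 hosts, 13 fell (86.7%, against 21.0% of all genes) and 0 rose, with a median of -0.59 (at most -0.48 in each pair of a KD and an EV library). SNHG1 had 374 and 324 in EV and 135 and 125 in KD (-1.42, adjusted p = 8.79e-09), SNHG15 had 294 and 309.5 in EV and 169 and 193 in KD (-0.74) and SNHG8 had 311 and 246 in EV and 157 and 197 in KD (-0.65). Each KD library lay below each EV library in these 3, which were chosen for the size of their change. The hosts together made up 0.075% and 0.073% of the EV libraries and 0.051% of either KD library. Initiation factors had 12 of 43 higher, 11 lower and a median of 0.01, close to all genes, and with scaling by totals 6 were higher and 20 lower. EIF1, which guards start codon choice, fell (14704 and 14879 in EV and 11136 and 11242 in KD, -0.40), as did EIF4EBP1, the repressor of cap binding (-0.34), and EIF2S1, the alpha subunit of eIF2 (-0.28), while EIF3B rose (0.31). Of 14 elongation and termination factors, 8 rose (57.1%, against 27.8% of all genes) and 4 fell (28.6%), with a median of 0.10, and with scaling by totals 5 were higher and 4 lower with a median of 0.01. EEF2, the translocase, fell (37654 and 35739 in EV and 31306 and 30989.7 in KD, -0.24) and EEF2K, the kinase that inhibits it, rose (0.40). With the median of their 10 Mb windows subtracted, EEF2 had -0.028 and EIF3B 0.028. EEF1A2, a tissue-restricted form of the factor that brings tRNAs to the ribosome, rose by 0.58 over all its transcripts and had -0.27 when only transcripts annotated as protein coding were summed.

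mRNAs of the respiratory chain were more often lower than higher in both genomes. All 13 mRNAs encoded in mitochondrial DNA were measured, of which 10 fell (76.9%, against 21.0% of all genes) and 0 rose, with a median of -0.24. Their share of the library went from 0.63% and 0.623% to 0.464% and 0.472%. MT-CO1, a core subunit of complex IV, had 52233 and 51581 in EV and 37603 and 38226 in KD (-0.45, adjusted p = 8.27e-12), and MT-ND6 of complex I had 6002 and 6282 in EV and 4460.5 and 4590.2 in KD (-0.44). These messages are translated by mitochondrial ribosomes. Of 75 nuclear-encoded subunits, 32 fell (42.7%, against 21.0% of all genes) and 13 rose (17.3%, against 27.8%), with a median of -0.10. NDUFA7 of complex I had 324 and 521 in EV and 189.7 and 267 in KD (-0.89), COX6B1 of complex IV had 4409 and 4412 in EV and 2945 and 2849.6 in KD (-0.61) and ATP5ME of the ATP synthase had 364 and 398 in EV and 241 and 257 in KD (-0.62). The subunits that rose stayed at 0.33 or below.

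DNA replication genes were more often lower, with 25 of 46 lower (54.3%, against 21.0% of all genes), 5 higher (10.9%, against 27.8%) and a median of -0.19. All 6 subunits of the replicative helicase fell. MCM6 had 622 and 636 in EV and 356 and 384 in KD (-0.77), MCM3 had 1802 and 1708 in EV and 1154 and 1158 in KD (-0.60) and MCM4 had 1432 and 1285 in EV and 951 and 947 in KD (-0.52), and MCM2, MCM5 and MCM7 had smaller falls (-0.41, -0.17 and -0.47). CHAF1A, which places histones on new DNA, fell by 0.58. The 5 that rose were TK1 (0.33), RPA3 (0.25), POLD2 (0.21), TYMS (0.11) and FEN1 (0.10). Mitotic genes were mixed (median -0.06), with 21 of 57 lower (36.8%, against 21.0% of all genes) and 9 higher (15.8%, against 27.8%). NDC80 of the kinetochore fell (-0.59), whereas the mitotic transcription factor FOXM1 (4481 and 4519 in EV and 6649 and 6627 in KD, 0.56) and CDCA3 (0.60), both on the short arm of chromosome 12, rose. Among 16 cyclins, CDKs and inhibitors, 5 rose (31.2%) and 3 fell (18.8%), close to the 27.8% and 21.0% of all genes. CDKN1C, an inhibitor of G1 kinases, had 94.2 and 97.3 in EV and 299 and 324 in KD (1.70), CCND1, cyclin D1, rose by 0.53 and CDKN1A, the inhibitor under p53, fell by 0.36. Replication-dependent histones, whose usual mRNAs lack a poly(A) tail, made up 0.01% of either EV library and 0.012% of either KD library over 36 genes. Of the 9 with a mean of at least 50 counts, 4 rose (44.4%, against 27.8% of all genes). Some of their transcripts were long for their coding part, such as that of H2BC21 (2224 nucleotides, 381 of them coding). MYC had 6004 and 5830.1 in EV and 4611 and 4579 in KD (-0.36). In the network of MYC and its partners 7 of 13 fell (53.8%, against 21.0% of all genes) and 4 rose (30.8%, against 27.8%).

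Most genes of antigen presentation rose, while the shares for interferon targets were near those of all genes. MHC class I molecules display peptides, cut by the proteasome and loaded in the ER, to T cells. Of 18 members, 13 rose (72.2%, against 27.8% of all genes), 1 fell (the chaperone CANX, -0.15) and the median was 0.32. HLA-C had 1327 and 1429.8 in EV and 2379.5 and 2424 in KD (0.80, adjusted p = 2.33e-11), though reads are shared between the classical HLA genes and their alleles differ from the reference. TAPBP, which holds MHC at the peptide transporter, had 4632 and 4891 in EV and 7312 and 7896 in KD (0.68). PSMB10, an immunoproteasome subunit, had 708 and 702 in EV and 1106 and 1128 in KD (0.66), and NLRC5, the transactivator of MHC class I genes, had 470.3 and 481 in EV and 812 and 844 in KD (0.80). All KD libraries exceeded all EV libraries in these 4 genes, which were chosen for the size of their change. B2M, the shared light chain, did not pass the threshold (17429 and 17707 in EV and 17502 and 17533 in KD, -0.00). Interferon-stimulated genes had 8 of 31 higher (25.8%), 7 lower (22.6%) and a median of -0.04, against 27.8% and 21.0% of all genes, with OAS3 (60.2 and 58.4 in EV and 136 and 145 in KD, 1.24), EPSTI1 (0.97) and BST2 (0.76) higher and HERC5 (-0.59) and ISG15 (-0.42) lower. Of 42 interferon members tested, 31 reached the minimum of 50 counts. Among those under it, 4 (MX1, MX2, OAS1 and XAF1) were higher, picked after their values were seen. OAS1, a sensor of double-stranded RNA, had 0 and 0 in EV and 11 and 12.3 in KD. The other members under the minimum are not reported here, so these 4 give no direction for the list.

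The interferon response letters, GAAA and a second GAAA after any 2 bases, on either strand with overlapping matches counted, were in 7 of 14 promoters of the MHC class I list (50.0%) and 18 of 25 of the interferon list (72.0%), against 3.65% of 27305. The letters were frequent in both lists, of which the first had 13 of 18 members higher and the second 8 of 31. Whether the letters go with the change in KD was not tested. The 2 called MHC class I genes with the largest changes and a match before the start are shown, with 2 overlapping matches in TAPBP and 1 in PSMB10 in capitals:
TAPBP, chr6:33314079-33314178, minus strand: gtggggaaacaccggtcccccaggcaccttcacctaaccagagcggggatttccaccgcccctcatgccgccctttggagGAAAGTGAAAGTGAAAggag
PSMB10, chr16:67936851-67936950, minus strand: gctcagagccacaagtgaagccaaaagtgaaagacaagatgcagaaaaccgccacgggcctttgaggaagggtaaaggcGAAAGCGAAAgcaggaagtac

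Targets of NF-kB, cytokines and chemokines changed singly, with 6 of 24 higher, 9 lower and a median of 0.00. CSF1, the growth factor of macrophages, had 1277 and 1261 in EV and 2861 and 2994 in KD (1.21, adjusted p = 1.69e-15). CSF3, the granulocyte factor, had 127 and 128 in EV and 45.9 and 51.3 in KD (-1.39), and the adhesion receptor ICAM1 had 692 and 602 in EV and 334 and 353 in KD (-0.91). The first rose and the other two fell, without overlap between groups.

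Genes of protein turnover were mostly higher. The lysosome and autophagy list had 20 of 27 higher (74.1%, against 27.8% of all genes) and 1 lower (GLA, -0.27), with a median of 0.25. CTSD, the main aspartic protease of lysosomes, had 5123 and 4968 in EV and 9599.9 and 9971 in KD (0.96, adjusted p = 1.5e-15), the autophagy receptor SQSTM1 had 13128 and 13184 in EV and 19442 and 19414 in KD (0.56), and GABARAPL1, which coats autophagosomes, had 2825 and 2809 in EV and 4414 and 4466 in KD (0.66). Proteasome subunits had 21 of 31 higher (67.7%, against 27.8% of all genes) and 6 lower (19.4%, against 21.0%), with a median of 0.17. They were led by PSMA2 (3561 and 3686 in EV and 5190.4 and 5154 in KD, 0.51). Antioxidant targets of NRF2 had 11 of 20 higher and 5 lower (median 0.27). HMOX1, heme oxygenase, had 794 and 754 in EV and 1428 and 1420.2 in KD (0.88), and TXNRD1 and FTL rose by 0.47 and 0.42. All 3 metallothioneins with a mean of at least 50 counts fell, among them MT2A (10252 and 10207 in EV and 6564 and 6231 in KD, -0.68). The p53 targets had 10 of 25 higher (40.0%) and 8 lower (32.0%), against 27.8% and 21.0% of all genes, in a line whose p53 is mutated.

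Glycolysis and hypoxia genes were split, with 17 of 36 higher, 9 lower and a median of 0.03. GAPDH had 84469.7 and 81918 in EV and 126994 and 124590.5 in KD (0.60, adjusted p = 6.66e-15) and ENO2 had 3528 and 3379 in EV and 5079.6 and 4964 in KD (0.54), and both lie in the first 20 Mb of chromosome 12, where the median gene had 0.34. Of the hypoxia markers, CA9 fell by 3.08 while its relative CA12 (198 and 189 in EV and 378 and 307 in KD, 0.82) and ADM, adrenomedullin (3027 and 2929.7 in EV and 4525 and 4366 in KD, 0.58), rose.

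Several lists of the cell surface and matrix had more members higher than lower. Surface glycoproteins of adhesion and motility had 20 of 25 higher (80.0%, against 27.8% of all genes) and 2 lower (8.0%, against 21.0%), with a median of 0.30. The tetraspanin CD82 had 3798 and 3717 in EV and 6898 and 6818 in KD (0.87), the heparan sulfate proteoglycan GPC1 had 466 and 505 in EV and 966 and 1027 in KD (1.03) and the adhesion molecule CADM1 had 226 and 205 in EV and 369.5 and 417 in KD (0.87). MCAM (-0.66) and CADM4 (-0.70) were the 2 that fell. Among laminins and matricellular proteins 10 of 21 rose (47.6%, against 27.8% of all genes) and 2 fell (9.52%, against 21.0%), with a median of 0.16. SPARC, a collagen-binding matrix protein (chr5:151661096-151686975), had 238 and 198 in EV and 949.6 and 1049.5 in KD (2.20, adjusted p = 2.11e-16), and TGFBI had 282 and 332 in EV and 763 and 756 in KD (1.30). The first of these rose over 4-fold with no overlap. Of 15 collagens, 4 rose (26.7%) and 2 fell (13.3%), no more than among all genes. COL6A2 (0.76) and COL6A1 (0.73) rose, and COL4A5 (-0.95) and COL12A1 (-0.70) fell. Matrix proteases and their inhibitors had 11 of 22 higher (50.0%, against 27.8% of all genes) and 1 lower (4.55%, against 21.0%). ADAM19 (1260.4 and 1188 in EV and 2156 and 2307 in KD, 0.87) and TIMP2 (0.57) were among the rises. Of 12 integrin subunits, 6 rose (50.0%, against 27.8% of all genes) and 0 fell, with ITGB2 (752 and 684 in EV and 1242 and 1187 in KD, 0.76) and ITGB5 (0.62) ahead.

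Epithelial and mesenchymal genes went both ways. Keratins and epithelial junction genes had 9 of 24 higher (37.5%) and 5 lower (20.8%), against 27.8% and 21.0% of all genes. The simple keratin KRT7 had 2679 and 2653 in EV and 5696 and 5544 in KD (1.08, adjusted p = 2.11e-16) and the tight junction protein CLDN4 had 578 and 584 in EV and 1881 and 1865 in KD (1.69), whereas KRT17 had 97.3 and 62.3 in EV and 21 and 27.7 in KD (-1.71). Among cadherins and regulators of the epithelial to mesenchymal transition, 3 of 11 rose (27.3%) and 1 fell (9.09%). The shares over all genes were 27.8% and 21.0%. CDH11, a mesenchymal cadherin, had 161 and 181 in EV and 563 and 538 in KD (1.68), SNAI1 rose by 0.65 and ZEB1 fell by 0.24. Vimentin (0.01, adjusted p = 0.775) did not pass the threshold. GATA3, a luminal transcription factor that this line has at low levels, had 22.1 and 29.2 in EV and 77.9 and 103 in KD (1.81). Actin cytoskeleton genes had 24 of 45 higher (53.3%, against 27.8% of all genes) and 10 lower (22.2%, against 21.0%). Their median was 0.14, and 0.05 with scaling by totals. FHL1 was higher (0.59) and the crosslinker ACTN1 lower (15555 and 14831 in EV and 10328 and 10523 in KD, -0.54). In the S100 and annexin families 10 of 15 rose (66.7%, against 27.8% of all genes) and 2 fell (13.3%, against 21.0%). ANXA2 had 35701 and 36725 in EV and 56748 and 56961 in KD (0.65) and S100A2 had 132 and 116 in EV and 62.9 and 50.3 in KD (-1.13).

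In the TGF-beta, activin and BMP pathway 15 of 29 rose (51.7%, against 27.8% of all genes) and 3 fell (10.3%, against 21.0%), with a median of 0.19. INHBB, an activin subunit, had 104 and 114 in EV and 266 and 263 in KD (1.27) and NOG, the BMP antagonist noggin, rose by 0.86, while FST, which binds activin, had 2298 and 2216 in EV and 1250.2 and 1312 in KD (-0.82) and BMP2 fell by 2.24. Output of the MAPK pathway had 14 of 31 lower (45.2%, against 21.0% of all genes) and 8 higher (25.8%, against 27.8%), with a median of -0.12. After EGR1 the next falls were AREG (-0.70) and SPRY4 (-0.45). EGR2, under the minimum, had 21.1 and 17.5 in EV and 4.99 and 3.08 in KD. YAP and TEAD targets had 12 of 25 higher (48.0%, against 27.8% of all genes) and 8 lower (32.0%, against 21.0%). ANKRD1 (9420.4 and 9388 in EV and 16028 and 16054 in KD, 0.77) and NT5E (0.74) were higher and the classical targets CCN1 (-0.43) and CCN2 (-0.11) lower. Receptor tyrosine kinases and ligands had 12 of 24 higher (50.0%) and 5 lower (20.8%), against 27.8% and 21.0% of all genes. PDGFRB had 237 and 241 in EV and 598 and 648 in KD (1.38), EPHB2 had 544 and 469 in EV and 1008 and 1086 in KD (1.05) and TGFA, a ligand of EGFR, had 522 and 593 in EV and 266 and 258 in KD (-1.09). EGFR itself fell (-0.56). Splicing factors of the SR and hnRNP families had 7 of 25 higher (28.0%, against 27.8% of all genes) and 9 lower (36.0%, against 21.0%). HNRNPA1 (-0.38) and CLK1 (-0.60) were among the falls.

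Long noncoding RNA genes were more often lower than higher in KD polysomes. Of 580 genes annotated as long noncoding RNA, 42 were higher (7.24%) and 149 lower (25.7%), with a median of -0.19, against 29.0% and 20.8% of 11396 protein-coding genes with a median of 0.02. Transcripts annotated as long noncoding made up 0.805% and 0.807% of the EV libraries and 0.697% and 0.696% of the KD libraries. The share of transcripts with a retained intron also moved, from 1.824% and 1.822% to 1.755% and 1.745%. MALAT1, a nuclear RNA that is not translated, rose (448 and 432 in EV and 620.1 and 662 in KD, 0.54). NORAD, a mainly cytoplasmic RNA kept in the same list, fell (-0.10), and the other 5 members measured were not called. The labels name a library kit that selects poly(A) RNA and the methods one that removes rRNA, so what share of noncoding RNA the libraries could hold is not settled by the sources used here.

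Short mRNAs were more often lower than higher in KD. For 11334 genes the coding transcript with the most counts was taken from GENCODE 44. The 160 genes whose mRNA was under 600 nucleotides had a median log2 fold change of -0.14 (library pairs -0.19 to -0.10), with 22 higher (13.8%) and 69 lower (43.1%). Between 600 and 799 nucleotides the median was -0.05, and from 1000 nucleotides up every class lay between 0.02 and 0.03. Within the ribosomal proteins, those under 600 nucleotides had 14 of 31 members higher and 8 lower, and the longer ones 33 of 48 higher and 5 lower. Within the nuclear-encoded respiratory chain, the short ones had 0 of 25 higher and 16 lower, and the longer ones 13 of 50 higher and 16 lower. Short mRNAs in neither list had 8 of 104 higher and 45 lower. The transcript taken was sometimes long for its coding part, so some genes with short coding sequences counted among the longer ones. Examples are RPL37 (7573 nucleotides, 294 of them coding), RPS28 (1330 and 210) and ATP5F1E (3610 and 156). How far this affects the split by length was not tested. In SUM159 the class under 600 nucleotides had a median of 0.30, on the other side of 0, and this difference between the lines was not tested.

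**Figure D4:**
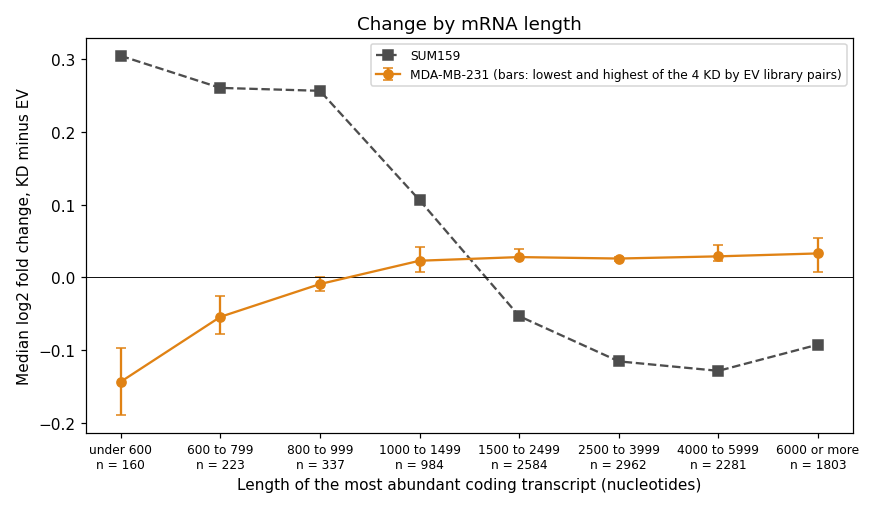
Median log2 fold change (KD minus EV) by mRNA length in nucleotides. Circles are MDA-MB-231 with bars from the lowest to the highest of the 4 pairs of a KD and an EV library (pairs share libraries), squares are SUM159, and n counts genes. In MDA-MB-231 the shortest class is lowest, at -0.14, while in SUM159 it is highest, at 0.30.

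Base composition went with the change only weakly. Across the 11334 genes, which are not independent replicates, Spearman's rho with the log2 fold change was 0.16 for the GC content of the transcript, 0.17 for GC at the third codon position and 0.04 for transcript length. The TRMT112 partner ALKBH8 acts on the wobble uridine of tRNAs that read the codons ending in A for lysine, glutamate, glutamine and glycine and the split-box codon ending in A for arginine. The share of these 5 codons in the coding sequence had a rho of -0.16. Of 5 equal classes of genes, the one with the least of them (median 2.91% of codons) had a median log2 fold change of 0.07, and the one with the most (median 17.3%) had -0.06. Since this share and GC at the third position were themselves tied (rho -0.91), the data do not separate them. For the lysine tRNA of MDA-MB-231, the paper found no significant effect of the knockdown at this wobble position. A link between the codons and the modification was not tested here. Mean count had the highest rho (0.21), with medians from -0.09 in the least abundant of 5 classes to 0.10 in the most abundant.

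Changes also followed position in the genome. Taking the median log2 fold change of all genes on a chromosome, chromosome 14 was lowest of the nuclear ones at -0.22, with 37 of 399 genes higher (9.27%) and 213 lower (53.4%). Both KD libraries showed it, at -0.23 and -0.21 against the EV mean, while the EV libraries lay within 0.004 of it. The first 50 Mb of chromosome 7 had a median of 0.31, with 109 of 178 genes higher and 9 lower, whereas the rest of the chromosome had -0.03. The first 20 Mb of chromosome 12 had a median of 0.34, with 70 of 109 higher and 3 lower, against 0.01 for its remainder. The first 30 Mb of chromosome 19 had -0.23, with 25 of 422 higher and 223 lower, against 0.03. Chromosome 2 beyond 110 Mb had -0.18, with 36 of 399 higher and 175 lower, against 0.02 before. These boundaries were placed after the values had been seen. No DNA was measured in these files, and the part of position in any single gene's change was not tested. Under subtraction of the 10 Mb window's median, 142 of the 242 named genes called moved, 2 reversed and 98 stayed the same. Window medians were 0.311 for RPL13, -0.298 for RPS29, 0.358 for PSMA2, 0.376 for DDX47 and -0.241 for MYC. What remained for these genes was 0.255, -0.245, 0.155, 0.209 and -0.123. When the median of each gene's 10 Mb window was subtracted, the list medians were 0.36 for sterol synthesis, -0.33 for the ATF4 targets, 0.31 for MHC class I, -0.56 for the small nucleolar RNA hosts and 0.21 for lysosomes, so that each of these kept its sign. Of all 46 list medians, 5 changed sign. Others shrank, such as the MYC network, from -0.223 to -0.046, and TRMT112 with its partners, from -0.171 to -0.045.

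**Figure D5:**
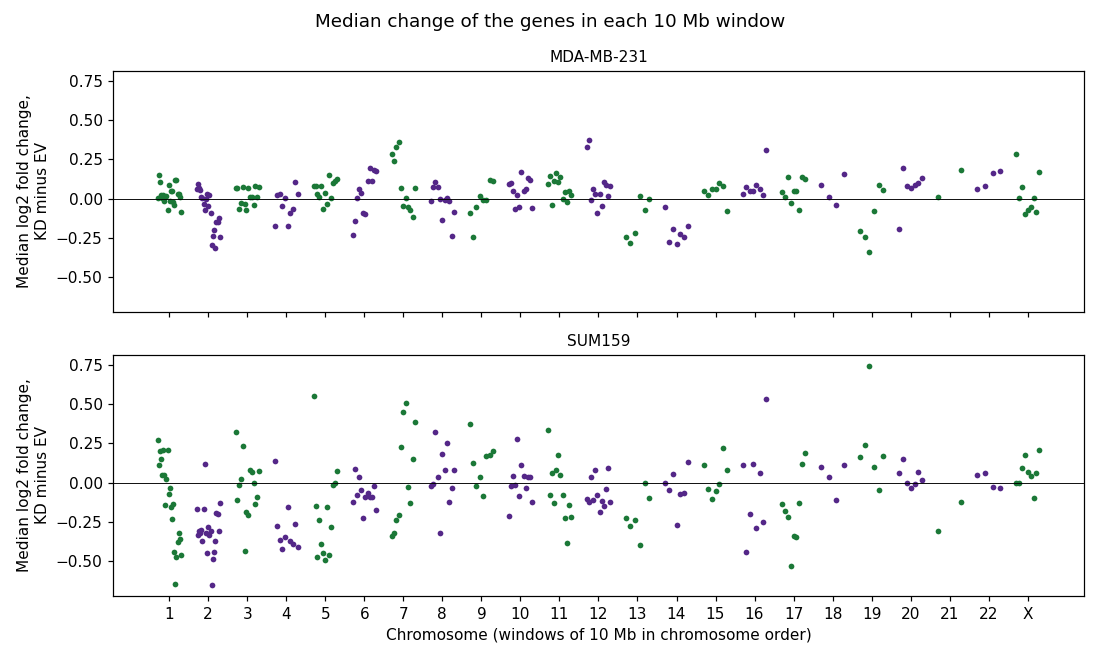
Median log2 fold change (KD minus EV) of the genes in each window of 10 Mb with at least 20 genes, in order along each chromosome, for MDA-MB-231 (top) and SUM159 (bottom); the 2 colours only separate neighbouring chromosomes. In MDA-MB-231 the windows at the start of chromosomes 7 and 12 lie above 0, with region medians of 0.31 and 0.34, as do the end of chromosome 16 and the start of X, and most of chromosome 14 lies below 0.

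The SUM159 libraries, which carry the same knockdown in another TNBC line, give the same comparison in a second line. The KD effect differed between the lines in 7694 of the 12084 genes (63.7%, the difference tested in the same edgeR model), and 8717 (72.1%) were called in SUM159 itself. Of the 19 genes named above as the largest or most abundant rises, 4 were also higher in SUM159 KD, 3 were lower and 12 were not called, and the difference was past the threshold for 12. Of the 20 falls, which include TRMT112, 9 were also lower, 5 were higher and 6 were not called, and the difference was past the threshold for 14. MYLK rose in both lines (log2 fold change 1.66 and 1.85), and so did HEG1 (1.43 and 0.36), with each difference past the threshold. TFPI2 fell in both (-1.42 and -1.52), and its difference of 0.11 (standard error 0.11) was not called. CA9 went opposite ways (-3.08 and 1.36). Of the lists, the ATF4 targets and the synthetases had lower medians in SUM159 (-1.09 and -1.06), and the difference was called for 31 of 32 and 23 of 23 members. Sterol synthesis had a median of -0.13 there and MHC class I one of -0.67, on the other side of 0 from MDA-MB-231, with the difference called for 24 of 24 and 18 of 18 members. The mitochondrially encoded mRNAs had -0.26 in SUM159 against -0.24, and the difference was called for 3 of 13.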

How the data were processed

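RNA of polysome fractions was sequenced from 12 libraries, and the 4 of MDA-MB-231 are described here. The authors' methods name Trimmomatic, HISAT2 with GRCh38, removal of duplicates with SAMtools, and Partek. The labels give a poly(A) selecting library kit and the methods an rRNA depleting one. The values deposited by the authors are expected counts, 1 row per Ensembl transcript, without normalisation, and the quantifier, annotation and strand setting are not given in the sources used here. Of 201932 transcripts, 10254 (5.08%) held a question mark in place of a value, which was read as 0. Transcripts were matched without version to GENCODE 44 (79.7%), summed per gene symbol and rounded. Mapped reads were not seen, so genes with near copies, overlapping genes and antisense RNAs are uncertain.

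Counts were scaled by TMM, filtered with filterByExpr (16538 genes) and fitted in edgeR 4.0.16 (R 4.3.3) with 6 group means over 12 libraries, so that all groups shared 1 estimate of spread. The quasi-likelihood test was used with Benjamini-Hochberg adjustment over all genes tested and a threshold of 0.05. The difference between lines was tested in the same model. Intervals for low counts are exact and cover counting error only, at a confidence level of 95%, and a count of 0 allows up to 3 counts. In simulated data for this comparison with 15989 genes, 100 genes were changed by 0.5 (log2) and 100 by 1. Of these, 77% and 97% were recovered, and 6.95% of calls were false. Far more genes were called in the real data (37.7%), so these rates need not hold there. Promoters and their letters came from RefSeq tables (GRCh38.p14).

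The members and gene lists were chosen with earlier results of these data known. Named genes were TRMT112 and its partners, the 15 largest called changes in each direction without overlap between groups, the 5 largest each way with a mean of at least 2000 counts, up to 5 called members per list, and markers of identity and other cell types. The leading lists left out 4 mRNAs (ATP1B1, LMCD1, TPM1 and MDK) that the study had singled out, whereas ASNS and VRK1, which it had also singled out, were kept in the lists. Other list members, among them exceptions to a list's direction and members under 50 counts, were named after their values were seen. Some list members are counted but not reported here by name. Alternatives were DESeq2 1.42.0, other scalings and filters, the 4 libraries fitted alone, protein-coding transcripts only, a replicate block and leaving out each library. Subtracting the median of each 10 Mb window, and the length classes under scaling by totals, were chosen after seeing the data.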

Additional observations from a re-analysis of the deposited data

Results flagged for a closer look

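Among TRMT112, its partners and the leading genes by size or abundance, 10 were flagged because the effect of knockdown was called in opposite directions in MDA-MB-231 and SUM159. In each, the difference between the lines (log2 fold change in MDA-MB-231 minus that in SUM159) also passed the threshold in the same edgeR model. The genes with a rise in MDA-MB-231 and a fall in SUM159 were SAA1, with a difference of 4.69, GGT5 with 4.34, DYSF with 3.12, and the TRMT112 partners THUMPD3 with 0.69 and BUD23 with 0.55. In SUM159 the mean normalised count went from EV to KD as 6798 and 2483 for SAA1, 24.2 and 8.6 for DYSF and 7053 and 6573 for BUD23. Those with a fall in MDA-MB-231 and a rise in SUM159 were CA9, with a difference of -4.45, SH2D3A with -3.89, EDA with -3.56, EMC10 with -3.49 and LSR with -2.96. In SUM159 the means in EV and KD were 653 and 1681 for CA9, 2344 and 5962 for EMC10 and 62.3 and 96 for LSR. Over all 242 named genes called in MDA-MB-231, most of them list members, 71 met the same conditions. Of all 12084 genes, 72.1% were called in SUM159 and 63.7% differed between the lines. The share of opposite calls over all called genes was not counted, so whether these numbers are unusual cannot be told. What lies behind the differences was not tested.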

How the results depend on the processing

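Scaling by library totals alone gave 2236 genes higher and 3824 lower, in place of 3362 and 2535, and the limit of at least 2-fold gave 138 and 88. The other alternatives kept both counts within 1.5 times, at 2746 to 3675 higher and 2061 to 2964 lower, with 2743 to 2790 higher and 1909 to 1995 lower when 1 library was left out. Where the mean was 500 counts or more, Spearman's rho with the log2 fold change was 0.066 for transcript length (0.035 over all), 0.080 for the length of the leader before the coding sequence (0.054) and 0.161 for mean count (0.206). Of 242 named genes called, DESeq2 did not call 6 (ALKBH8, CFP, ERAP2, NORAD, RDUR and TC2N), scaling by totals 3 (CD68, SNAI2 and THUMPD3), and leaving out 1 library 7 to 10. EEF1A2 reversed to -0.266 in protein-coding transcripts, where 5 other calls were lost. With the median of each gene's 10 Mb window subtracted, 142 of the 242 moved, 98 stayed the same and 2 reversed. The 2 that reversed were METTL5, with 0.069, and EIF2S1, with 0.008, and the cause was not tested. The medians of 34 of 46 lists kept their sign under every alternative run, and the other 12 were no further than 0.078 from 0. A replicate block gave 3342 higher and 2529 lower and kept all 242 named calls. Samples with the same number did not deviate together (correlation 0.036 in MDA-MB-231 and -0.029 in SUM159), so they share only a number. With 2 libraries a group the median standard error was 0.072 on the log2 scale, and the genes with the fewest counts, such as ATP10A in EV, are limited by counting error.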
